A study of Mus musculus with 768 samples.

Results

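The genes described here are 36 genes of DNA replication and S phase, a list set by gene symbol, and all 36 were matched by Ensembl identifier among the 25700 genes of the count table. They were read in Schwann cells, the glia that ensheath and myelinate peripheral axons, which had been sorted from the sciatic nerve of mice at postnatal day 5 and sequenced singly by Smart-seq2 in 2 plates of 384 wells. Each plate was a biological replicate and held cells pooled from a male and a female mouse, so n = 2. All animals carried P0Cre-/+ : ReYFP Tg/+ : βAct-DsRed Tg/+ on a C57BL/6J background: Cre switches on eYFP in the Schwann cell lineage, DsRed is made in every cell, and eYFP-positive cells were collected. No treatment and no mutant arm is described, so the comparisons were between states of cells within the nerve.

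A well was retained if it held at least 1500 detected genes and was not a plate corner, which left 325 wells of replicate 1 and 330 of replicate 2, 655 of 768. A gene was counted as present in a well with 5 or more reads. Wells with at least 3 of 10 mitotic genes present (Mki67, Top2a, Cdk1, Birc5, Ccnb1, Ccna2, Aurkb, Ube2c, Tpx2 and Cenpf) were called cycling. The rest were split by genes of the myelin programme, as immature (Ncmap under 10 CPM, the reads of a gene scaled to 1000000 reads), intermediate (Ncmap at or above it and Pmp22 under 30000 CPM) or myelinating. None of the 36 genes entered these rules. Cycling wells numbered 32 and 25 in the replicates, immature wells 106 and 122, intermediate wells 79 and 70, and myelinating wells 108 and 113. Retained wells held 3306 to 2495101 reads (median 582414), and the sums of reads per state and replicate held 13925435 to 98479212. At least 3 of 10 Schwann cell markers were present in 57 of 57 cycling, 225 of 228 immature, 147 of 149 intermediate and 221 of 221 myelinating wells. The immune, endothelial and pericyte lists were met in 0 wells of any state, which allows up to 5.26% of the cycling wells, and Ptprc and Pecam1 were present in none. Single genes of the lists could still be present. Pdgfrb, of the pericyte list, was present in 1 of 57 cycling, 10 of 228 immature, 41 of 149 intermediate and 78 of 221 myelinating wells. A fibroblast list, 3 or more of 6 genes, was met in 3 cycling, 7 immature, 9 intermediate and 3 myelinating wells and a perineurial list in 4 intermediate wells; their part in the results was not tested. A list of immature Schwann cell genes was met in 86.0% of cycling, 73.2% of immature, 32.9% of intermediate and 6.33% of myelinating wells.

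DNA is copied once per cell cycle by an ordered set of machines. In G1, Cdc6 and Cdt1 load the MCM helicase onto origins, a step called licensing. At the start of S phase, Cdc45 and the GINS proteins turn the helicase on, primase and the polymerases start and extend new strands, the clamp Pcna is set in place by replication factor C, and Fen1 and Lig1 join the short lagging-strand pieces. Thymidine kinase, thymidylate synthase, ribonucleotide reductase and dUTPase supply the building blocks, while Chaf1a, Chaf1b, Uhrf1 and Hells remake chromatin behind the fork and Slbp serves the histone mRNAs. E2F factors drive transcription of many of these genes, and E2f8 is a repressor of the same family. In the early postnatal nerve immature Schwann cells still divide, and those that start to myelinate leave the cycle.

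The median number of the 36 genes present per well was higher in cycling wells than in the others, with ranges that overlapped (plot of replication against mitotic genes). The median was 13 genes in cycling wells of replicate 1 and 16 in replicate 2, against 2 and 3 in immature, 2 and 3 in intermediate and 2 and 3 in myelinating wells. The spread within a state was wide, from 0 to 31 genes in cycling and from 0 to 28 in immature wells. Summed over the 36 genes, the median well held 3260 and 4055 CPM among cycling, 577 and 655 among immature, 291 and 501 among intermediate, and 264 and 335 among myelinating wells. In wells thinned to an equal depth of 200000 reads, which left out 66 shallower wells (6 cycling, 31 immature, 20 intermediate and 9 myelinating), the medians were 10.5 and 16 genes in cycling wells and 2 and 3 in immature wells.

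**Figure D1:**
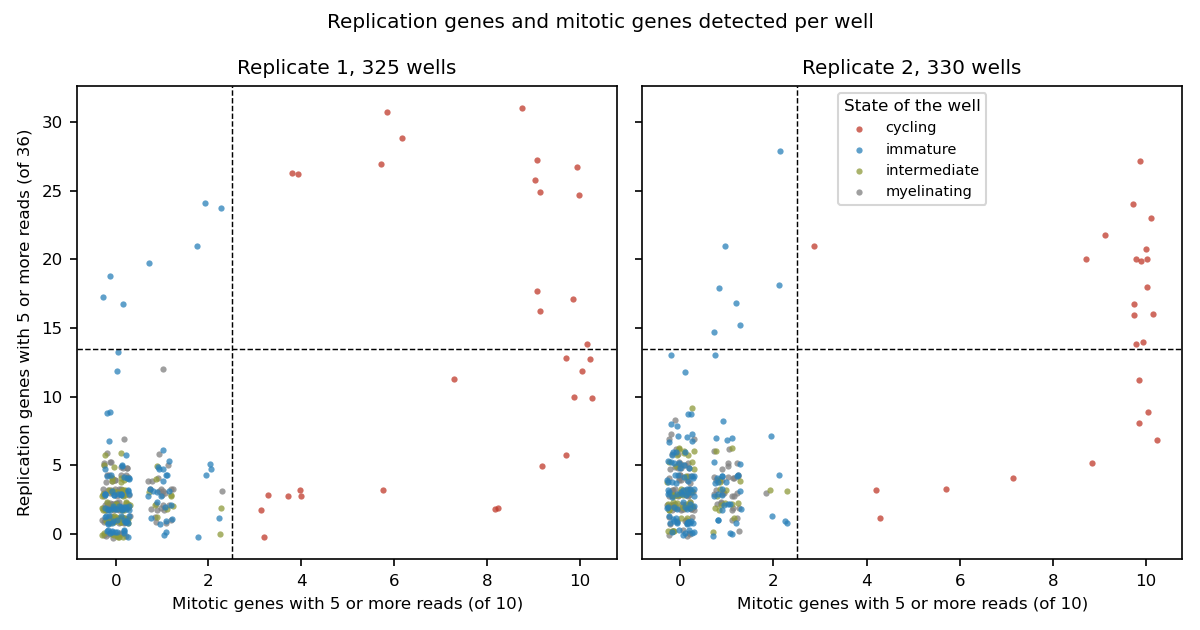
Each point is a well, with the mitotic genes present (of 10, x axis) against the replication genes present (of 36, y axis), jittered, coloured by state, for both replicates. Dashed lines mark 3 mitotic and 14 replication genes; 7 immature wells of each replicate lie above 14 replication genes with fewer than 3 mitotic genes, and no intermediate or myelinating well does.

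Single genes were found unevenly. Among the 57 cycling wells a member was present in 5 wells at the fewest, Cdc6, and in 39 at the most, Rrm2, a subunit of ribonucleotide reductase. The most widespread member was Pcna in immature wells (105 of 228) and in intermediate wells (66 of 149), and Rfc5, a subunit of the clamp loader, in myelinating wells (117 of 221). Compared per kilobase of exon, the level in cycling sums was highest for Pcna, at 235 CPM per kb ± 34.7 (SD, n = 2). Rrm2 followed at 138 CPM per kb ± 29.6, which did not overlap Pcna in either replicate, and then Dut at 101 ± 1.64, Tk1 at 100.1 ± 34.3 and Rfc4 at 97.1 ± 15.7, whose order lies within their spread. The lowest mean was that of Chaf1a, at 2.01 CPM per kb ± 1.64, but Hells in replicate 1 and Cdc6 in replicate 2 were lower still. In myelinating sums Pcna was still the highest of the 36, at 33.5 CPM per kb ± 1.76.

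**Figure D2:**
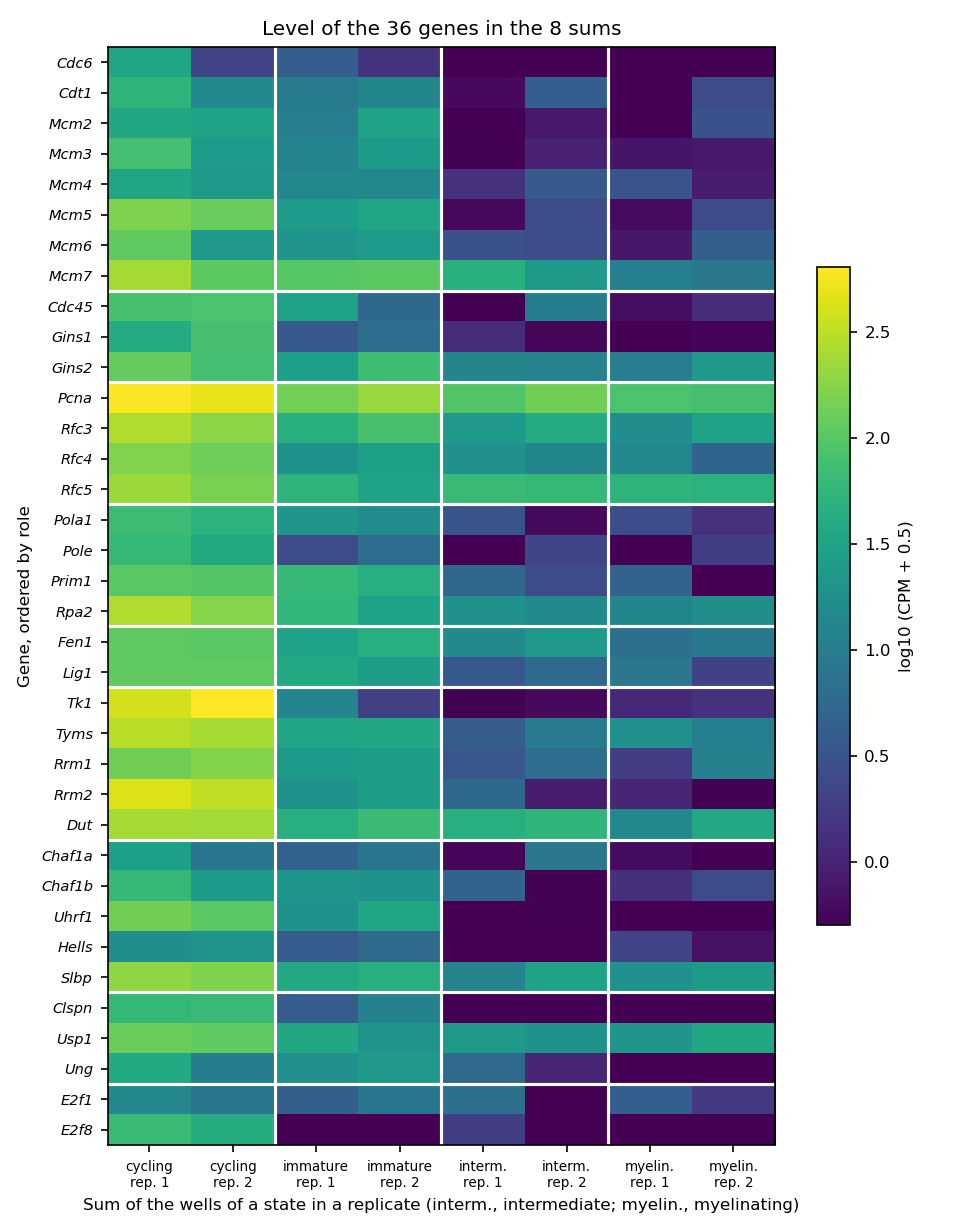
Level of each of the 36 genes, ordered by role, in the 8 sums of wells (4 states in 2 replicates), as log10 of CPM + 0.5. The cycling columns are the brightest for most genes, Pcna, Dut, Rfc5 and Usp1 stay visible in every column, and Uhrf1, Clspn, Cdc6 and Hells have no or almost no reads in the intermediate columns.

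Cycling wells were compared with immature wells, the wells that were neither cycling nor at the Ncmap border, to ask which replication genes go with the mitotic genes that defined the state. Reads of the wells were summed by state and replicate and fitted with edgeR's quasi-likelihood test, with Benjamini-Hochberg adjustment over 13892 genes. Of the 36 genes 9 rose in cycling wells and 0 fell, where 1.21% of all genes tested rose and 1.25% fell. Before adjustment 18 of 36 were higher at an edgeR p under 0.05, as were 843 of 13892 genes. All 36 had a positive fitted change, against 5953 of 13892 genes. The median log2 change of the 36 was 2.21, the same with E2f8 at its bound, against -0.13 over all genes. Both cycling sums lay above both immature sums for 31 of 36 genes and for 14.7% of all genes; the exceptions were Cdc6, Mcm2, Mcm6, Chaf1a and Ung.

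The clamp and its loader held 3 of the 9. Pcna (ENSMUSG00000027342, chr2:132249162-132253314, minus strand, GRCm38), the ring that tethers polymerases to DNA, had 623.5 and 505.8 CPM in cycling sums. It had 141.0 and 211.5 in immature, 92.4 and 135.3 in intermediate, and 83.4 and 77.4 in myelinating sums. Cycling sums did not overlap any other, and the log2 change against immature wells was 1.78 ± 0.27 (SE; edgeR adjusted p = 0.0140). Rfc5 (chr5:117378103-117389047) had 216.8 and 146.7 CPM in cycling against 52.3 and 30.3 in immature sums, a log2 change of 2.24 ± 0.35 (edgeR adjusted p = 0.0157). Its intermediate sums, 61.3 and 59.3 CPM, lay above both immature sums, and its myelinating sums, 52.3 and 47.9, above the lower of them. Rfc4 (chr16:23113943-23127737) had 165.8 and 131.8 CPM against 19.6 and 28.8 (log2 change 2.72 ± 0.56, edgeR adjusted p = 0.0437), and 0.0640 with the replicate as a block. Rfc3, with 278.5 and 184.1 CPM against 46.6 and 79.4, did not pass (edgeR adjusted p = 0.0600).

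Another 3 genes supply nucleotides. Tk1 (ENSMUSG00000025574, chr11:117815526-117826092, minus strand), the kinase that salvages thymidine, showed the widest contrast of the called genes. It had 394.5 and 646.4 CPM in cycling sums, 12.5 and 1.4 in immature, 0.0 and 0.1 in intermediate, and 0.6 and 0.9 in myelinating sums. The log2 change was 6.33 ± 0.95 (edgeR adjusted p = 0.0146). Tk1 was present in 36 of 57 cycling and in 5 of 228 immature wells, and 1 immature well held 61.1% of its immature reads. Tyms (chr5:30058202-30073617), which makes thymidylate, had 296.1 and 252.5 CPM against 34.3 and 36.6 (log2 change 3.05 ± 0.47, edgeR adjusted p = 0.0156). Dut (chr2:125247190-125258608), which clears dUTP, had 245.4 and 239.8 against 44.6 and 65.9 (2.24 ± 0.45, edgeR adjusted p = 0.0401). The reductase subunits Rrm1, with 136.5 and 169.4 CPM against 24.3 and 26.4, and Rrm2, with 441.2 and 325.0 against no more than 26.3, did not overlap between the states but did not pass (edgeR adjusted p = 0.151 and 0.125).

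The last 3 were single genes of other roles. Rpa2 (chr4:132768332-132778752), which coats single-stranded DNA, had 275.6 and 176.4 CPM in cycling and 56.9 and 31.6 in immature sums (log2 change 2.45 ± 0.40, edgeR adjusted p = 0.0178). Slbp (chr5:33634952-33652574), the stem-loop binding protein of histone mRNAs, had 197.8 and 163.0 against 36.9 and 45.9 CPM (2.22 ± 0.45, edgeR adjusted p = 0.0410). Usp1 (chr4:98923810-98935543), a deubiquitinase of the clamp, had 128.3 and 112.2 against 35.4 and 19.6 CPM (2.23 ± 0.44, edgeR adjusted p = 0.0393, and 0.0660 with the replicate as a block). In these genes both cycling sums lay above every other sum.

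The licensing genes gave no call. Of Cdc6, Cdt1 and Mcm2 to Mcm7, 0 of 8 passed edgeR's test, 0 had an unadjusted p under 0.05, and DESeq2 called none of them. Their median log2 change was 1.61. Mcm5 had 161.8 and 122.8 CPM in cycling and 24.9 and 33.3 in immature sums (log2 change 2.39 ± 1.29). Mcm7 had 245.5 and 107.3 against 100.1 and 105.2 (0.88 ± 0.46), so that replicate 2 hardly differed. Mcm2 had 35.6 and 30.2 against 10.2 and 30.4 (0.79 ± 1.78), and 14 of 57 cycling and 25 of 228 immature wells held it. Cdc6 had 33.8 and 1.7 CPM against 3.8 and 0.9, and Cdt1 51.8 and 14.9 against 8.8 and 12.7. Mcm3 had 76.1 and 25.4 against 12.3 and 24.7, Mcm4 33.1 and 23.4 against 13.3 and 13.8, and Mcm6 112.1 and 23.6 against 20.6 and 25.04. In 8 of 8 licensing genes the cycling sum of replicate 1 was above that of replicate 2. This order was not particular to them. It held for all the other members except Cdc45, Gins1, Tk1, Rrm1, Hells and Clspn. The SE was above 1 on the log2 scale for all licensing genes but Mcm7, so a change of a few fold would not have passed.

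Helicase activation (Cdc45, Gins1, Gins2) had 0 of 3 called, Okazaki fragment joining (Fen1, Lig1) 0 of 2, and the transcription factors 0 of 2 (edgeR), with 1, 2 and 1 genes at an unadjusted p under 0.05; DESeq2 called Gins1, Fen1 and E2f8 among them. Cdc45 had 80.1 and 84.6 CPM in cycling sums against 30.9 and 5.1 in immature sums, Gins1 40.6 and 78.2 against 3.2 and 6.2, and Gins2 119.0 and 75.1 against 28.1 and 69.5. The flap nuclease gene Fen1 had 110.2 and 101.7 CPM against 30.2 and 44.5, and the ligase gene Lig1 111.2 and 109.5 against 39.3 and 26.5. In all 5 the cycling sums were the higher, and Gins2 came closest to overlap. E2f8 (chr7:48866429-48881596) had 62.0 and 42.1 CPM in cycling sums and no read in the immature sums. Its 1819 reads in cycling wells, set against a floor of 3 reads over both immature sums, made it at least 2042-fold higher (edgeR adjusted p = 0.0691, not called). It was present in 13 of 57 cycling wells, and 1 of them held 39.9% of the reads. E2f1, an activator of the same family, had 13.5 and 7.5 CPM against 3.8 and 7.5 and was present in 6 cycling wells.

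The rest of the fork and chromatin genes did not pass edgeR's test, while DESeq2 and the fit without a filter on low counts called Uhrf1 and Clspn among them. The catalytic subunits of the polymerases had 67.5 and 49.5 CPM (Pola1, polymerase alpha) and 59.5 and 38.1 CPM (Pole, polymerase epsilon) in cycling sums, against 20.7 and 15.6 and against 2.2 and 6.1 in immature sums. Prim1 had 103.5 and 93.4 CPM against 60.2 and 45.9. These levels did not overlap between the states, with edgeR adjusted p from 0.469 to 0.816. Uhrf1 had 136.3 and 103.7 against 18.9 and 33.1 CPM (edgeR adjusted p = 0.0957), and Clspn 58.6 and 61.5 against 3.5 and 11.2 (0.150). Hells had 17.4 and 20.7 CPM against 3.6 and 5.4, and Chaf1b, a subunit of the histone chaperone CAF-1, 58.7 and 24.1 against 21.1 and 19.5. Chaf1a, of the same complex, had 28.0 and 7.5 against 4.3 and 7.6, so that replicate 2 was near equal. Ung had 38.8 and 9.98 against 18.1 and 23.3, and its replicates went opposite ways.

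**Figure D3:**
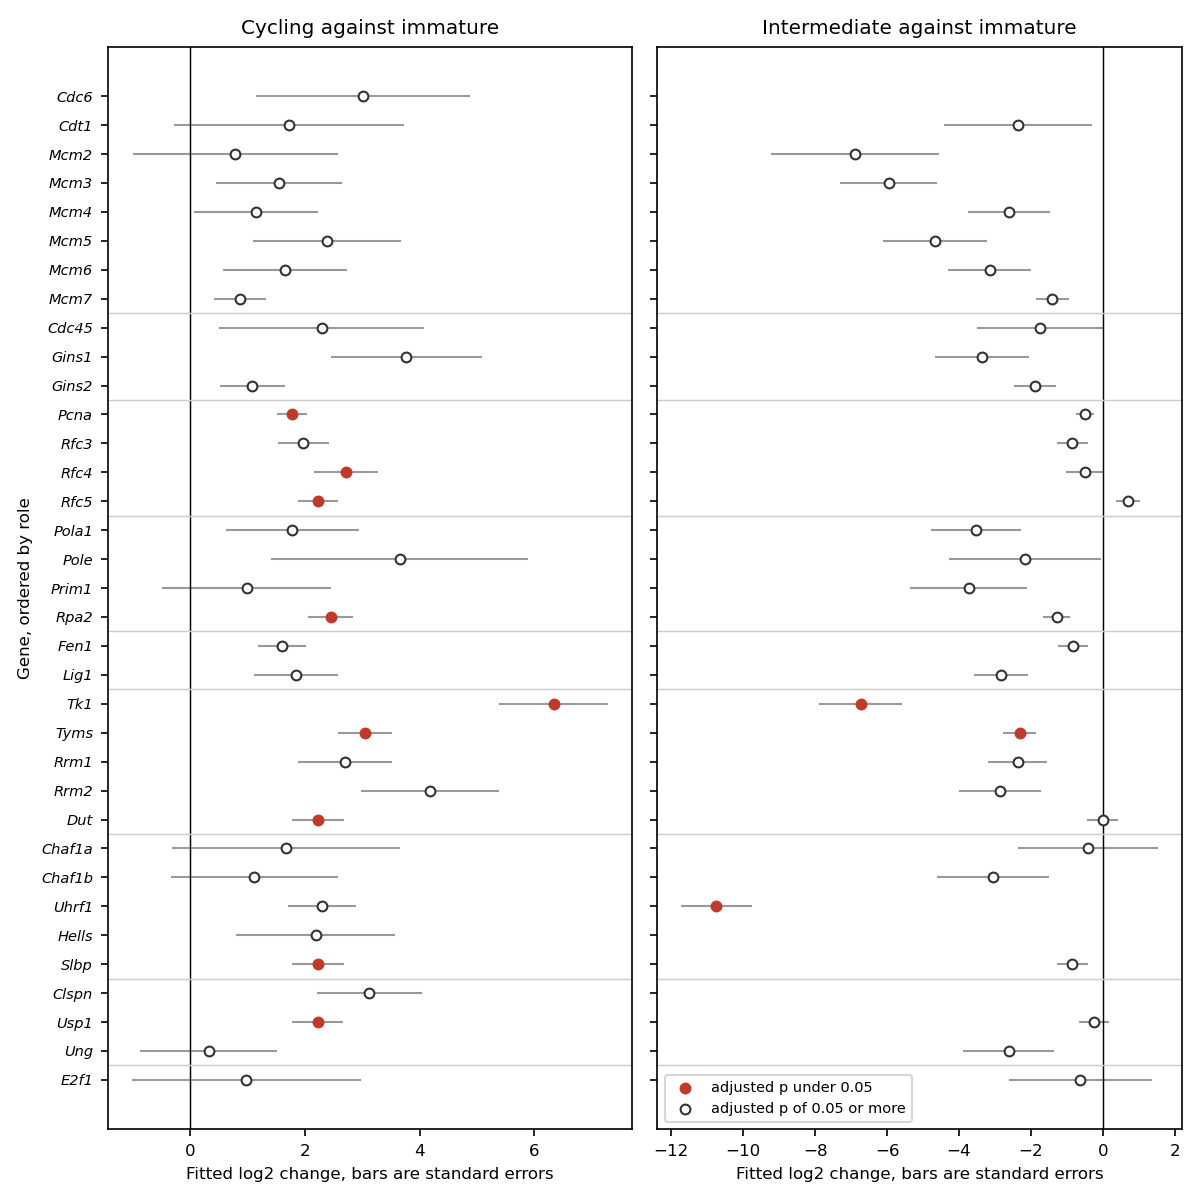
Fitted log2 change of each gene in cycling (left) and intermediate (right) against immature sums, with bars of 1 standard error, n = 2 sums per state, filled where the edgeR adjusted p is under 0.05. The 9 filled points on the left lie between 1.78 and 6.33; E2f8 (both panels) and Cdc6, Hells and Clspn (right) have no reads in a state and are not drawn, and Uhrf1 on the right rests on 1 intermediate read.

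Genes of neighbouring processes were counted from lists. Of 31 other replication genes 3 rose and 0 fell in cycling wells (median log2 change 1.16): Tipin, a fork protection factor (419.7 and 507.6 against 172.1 and 113.2 CPM, log2 change 1.81), Pold2, a subunit of polymerase delta (238.0 and 194.0 against 79.5 and 91.8, 1.44), and Ticrr, needed to fire origins (20.97 and 42.1 against 0.1 and 0.1, 8.54). Of 16 chromatin genes linked with replication 8 rose, with a median of 2.45, among them the histone variant gene H2afz (2815 and 3375 against 533.8 and 469.6 CPM, 2.73) and the chromatin protein gene Hmgb2 (1944 and 2914 against 141.5 and 98.6, 4.45). Of 30 other mitotic genes 19 rose, with a median of 5.87. Of 17 other nucleotide genes 0 were called by edgeR, with 4 at an unadjusted p under 0.05 and a median of 0.40. Among 28 G1/S regulators 0 rose and 1 fell, Cdkn1c, an inhibitor of cyclin-dependent kinases, from 1908 and 861.1 CPM in immature to 251.4 and 208.0 in cycling sums. Among Schwann cell genes Prx fell from 300.5 and 404.3 to 144.3 and 141.3 CPM, and S100b from 289.3 and 138.8 to 40.3 and 73.8 CPM.

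Intermediate wells were compared with immature wells to ask how the same genes stood when Ncmap had come on. Of the 36 genes 4 fell and 0 rose, where 0.986% of all genes fell and 0.965% rose. At an unadjusted edgeR p under 0.05, 20 were lower and 1 higher, against 806 lower and 710 higher of 13892 genes. The median log2 change was -2.36, the same with genes without reads at their bounds, against -0.03 over all genes, and 34 of 36 were fitted lower. Both intermediate sums lay below both immature sums for 29 of 36 genes, against 28.2% of all genes, and above them for Rfc5 alone.

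Uhrf1 (chr17:56303321-56323486), which guides maintenance of DNA methylation to the fork, had 18.9 and 33.1 CPM in immature sums and 1 read in both intermediate sums together, against 3008. The ratio was 2338-fold, with a counting interval of 419 to 92374 (edgeR adjusted p = 0.00104). It was present in 13 of 228 immature wells, and 1 well held 42.3% of the reads. Clspn (chr4:126556935-126593903), an adaptor of the replication checkpoint, had 3.5 and 11.2 CPM in immature sums. It had no intermediate read against 864, at least 224-fold lower by counts of reads (edgeR adjusted p = 0.0125), and was present in 12 of 228 immature wells. Tk1 had 5 intermediate reads against 761, a fall of 6.74 ± 1.16 on the log2 scale (edgeR adjusted p = 0.0241, and 0.0544 with the replicate as a block). Tyms had 3.7 and 9.3 CPM against 34.3 and 36.6 (log2 change -2.32 ± 0.46, edgeR adjusted p = 0.0426, and 0.0773 with the block). With the block 2 of the 4 calls remained, and counting intervals cover counting error only.

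Of the 8 licensing genes 7 were lower at an unadjusted edgeR p under 0.05, as were 806 of 13892 genes. By edgeR 0 passed adjustment, with a median log2 change of -3.90. Mcm3 fell short with 0.0 and 0.5 CPM against 12.3 and 24.7 (edgeR adjusted p = 0.0725), and Mcm5 had 0.1 and 2.0 against 24.9 and 33.3 (0.212). Cdc6 had no read in intermediate sums, at least 66.8-fold lower by counts of reads. Hells, a chromatin remodeller also without a read, was at least 133-fold lower by the same measure, and neither was called. Among 228 immature wells Cdc6 was present in 4, with 60.1% of its reads in 1 well, and Hells in 14. The bounds cover counting error only and leave out the spread between wells, so the true difference may be smaller. Pcna, at 92.4 and 135.3 CPM, lay below both immature sums (log2 change -0.50 ± 0.26, edgeR adjusted p = 0.551), and Dut, at 45.9 and 53.9 CPM, lay between them. Of 31 other replication genes 2 fell, Timeless (32.1 and 18.9 CPM to 0.3 and 0.2) and its partner Tipin (172.1 and 113.2 to 50.7 and 43.5), and 0 rose. Of 30 other mitotic genes 5 fell, and of 28 G1/S regulators 2 rose, the kinase inhibitors Cdkn1a (log2 change 3.31) and Cdkn1b (2.29).

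Between intermediate and myelinating wells edgeR called 0 of the 36 genes, where 0.77% of all genes were called in either direction. At an unadjusted edgeR p under 0.05 there were 10 (Mcm7, Gins1, Fen1, Tk1, Tyms, Rrm2, Chaf1a, Hells, Ung and E2f8). Of 13892 genes 644 were higher and 651 lower at that limit. DESeq2 called 5 of the 36 (Gins1, Hells, Mcm7, Tk1 and Ung), but the share of all genes that it called is not given here. Of these, Gins1 had 38 reads in intermediate wells, 94.7% of them in 1 well, and 3 in myelinating wells. Tk1 had 5 reads in intermediate and 140 in myelinating wells. The median log2 change of the 36 was -0.08, against 0.00 over all genes. Mcm7 had 46.6 and 23.3 CPM in intermediate and 10.6 and 8.4 in myelinating sums, which did not overlap. Ung, the glycosylase that removes uracil from DNA, had 279 reads in intermediate wells and none in myelinating ones. The 279 lay in 4 of 149 wells, 65.9% of them in 1 well. Hells had none in intermediate and 179 in myelinating wells, 50.8% of them in 1 well. Tyms had 18.4 and 10.4 CPM in myelinating sums, above both intermediate ones.

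Wells with many replication genes and few mitotic genes were then sought. The limit was set at 14 of the 36 genes, the median of the cycling wells; such wells are called S-high below. The wells were chosen by these genes and by the mitotic genes, so their levels of both are a description and carry no test. With fewer than 3 mitotic genes present there were 7 S-high wells among 325 of replicate 1 (2.15%, exact 95% interval 0.870 to 4.39) and 7 among 330 of replicate 2 (2.12%, 0.857 to 4.32). At this limit all 14 were immature, 7 of 106 and 7 of 122. Among intermediate and myelinating wells there were 0 of 187 and 0 of 183, which allows a share of up to 1.60% and 1.64%. After thinning to 200000 reads 12 of 13 such wells were immature and 1 was not. With no mitotic gene present at all there were 3 in replicate 1 (0.923%, 0.191 to 2.67) and 0 of 330 in replicate 2, which allows up to 0.909%. The 14 wells held 15 to 28 of the 36 genes, and the immature wells just under the limit, 3 of them, held 13; a single myelinating well held 12.

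Depth and Schwann cell genes of these 14 wells were set beside those of other classes. Their median reads were 474728 and 780047 per well in the replicates, and their median detected genes 3515 and 3979. The S-high cycling wells, 15 and 16 of them, had medians of 560690 and 546150 reads and 4171 and 4039 genes, and the other immature wells 477979 and 413048 reads and 2907 and 3172 genes. Sox10, the lineage factor of Schwann cells, was present in 14 of 14, and Ptprc, Pecam1, Cdh5 and Pdgfra in none. The 14 wells made up 6.14% of the immature wells and 7.70% of their reads but held 38.8% of the immature reads of the 36 genes. Their share was 81.0% for Mcm2, 82.8% for Cdc45 and 83.0% for Ung, against 25.1% for Pcna and 6.83% for Tk1. When they were left out of the immature sums, edgeR called 11 genes higher in cycling wells, with Fen1 and Rfc3 added to the 9. It called 3 lower in intermediate wells, without Tyms. The 14 wells were chosen by these genes, so their share of the reads and the direction of these changes follow from the choice. Nothing is read from them.

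The levels of the genes in these wells were set beside those in the S-high cycling wells. Summed over the 36 genes they had 5851 and 5249 CPM, against 9630 and 5857 in S-high cycling wells, 1180 and 1215 in the cycling wells with fewer than 14 of the genes (17 and 9 wells), and 632 and 814 in the other immature wells. Of the 36 genes 6 lay above both S-high cycling sums, where 11.8% of all genes tested did, 12 lay below both, where 18.8% did, and 18 overlapped. Since the genes chose the wells, nothing is read from these counts. The 6 were Mcm2, Gins2, Prim1, Chaf1b, Hells and Ung. Mcm2 had 120.0 and 297.3 CPM against 73.7 and 44.0. Prim1, the catalytic subunit of primase, had 441.6 and 374.1 against 128.1 and 139.0, and Ung 202.8 and 241.4 against 80.4 and 14.98. All 3 were above in both replicates, with the wider gaps in replicate 2 for Mcm2 and Ung.

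The 12 genes below both sums were Gins1, Pcna, Rfc5, Tk1, Tyms, Rrm1, Rrm2, Dut, Slbp, Clspn, Usp1 and E2f8. They included the 5 members of nucleotide supply, while of 17 other nucleotide genes the 14 wells held a median of 8 and 9 per well, against 10 and 7 in S-high cycling wells. Tk1 had 13.5 and 0.0 CPM, against 706.5 and 919.5 in S-high cycling wells, and was present in 1 of 14 wells against 28 of 31. E2f8 had no read in the 14 wells, against 125.6 and 56.6 CPM in S-high cycling wells, 11 of 31 of which held it. Pcna, at 551.5 and 603.1 CPM, was lower than in S-high cycling wells (1205 and 740.1) but above its level in the other immature wells (109.3 and 176.6). The 8 licensing genes were in neither extreme as a group: Mcm2 was above, and Cdc6, Cdt1, Mcm3, Mcm4, Mcm5, Mcm6 and Mcm7 overlapped.

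**Figure D4:**
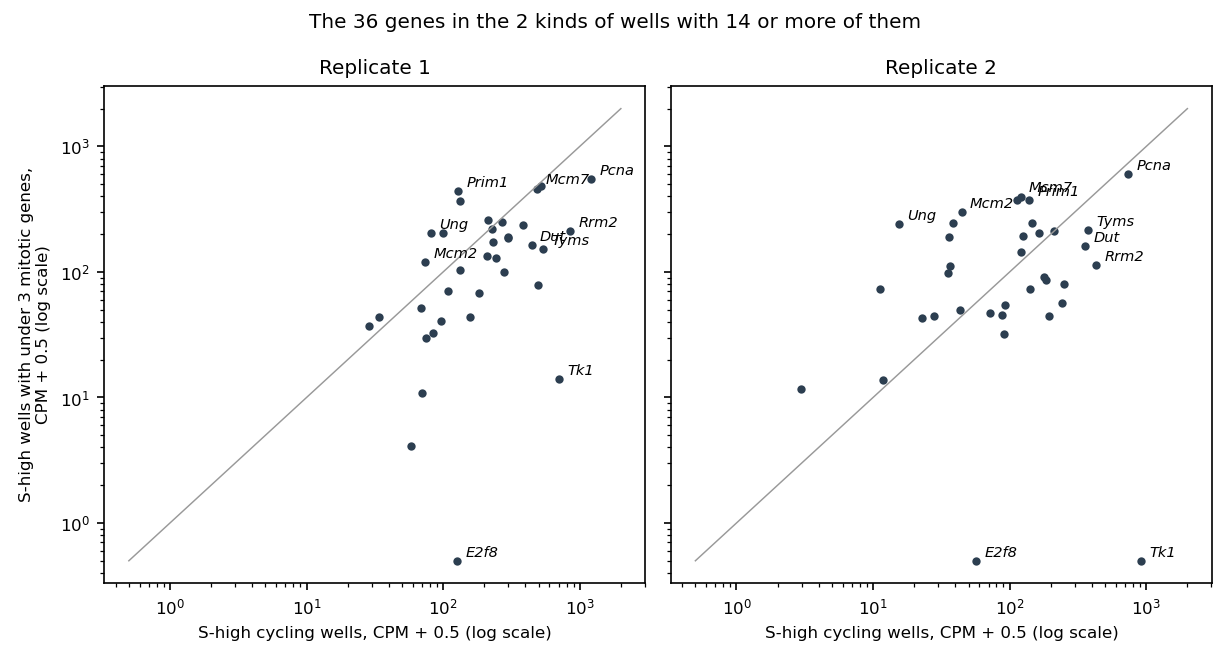
CPM + 0.5 of each of the 36 genes (log axes) in the S-high cycling wells (x axis) and in the S-high wells with fewer than 3 mitotic genes (y axis), for both replicates, with the line of equal level. Tk1 and E2f8 lie far under the line in both panels, while Prim1, Ung and Mcm2 lie above it.

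Genes that were not in the rules for the wells were set beside these levels. The other replication and mitotic genes belong to the same processes as the genes that chose the wells. Their gaps between classes are therefore not independent of that choice. Other replication genes, of 31, were present at a median of 13 and 12 per well, near the 16 and 14 of S-high cycling wells and above the 6 and 8 of the cycling wells with few replication genes and the 4 and 5 of other immature wells. The summed level of 67 histone genes went the other way, with a median of 177 and 268 CPM and a range from 2.21 to 1514 over the 14 wells. S-high cycling wells had medians of 4849 and 8044 CPM, cycling wells with few replication genes 4319 and 3167, and other immature wells 911 and 792. The classes overlapped: 4 of 15 and 1 of 16 S-high cycling wells lay at or below the highest of the 14. So did 72 of 99 and 84 of 115 other immature wells. The libraries were primed with oligo-dT, and how well this captured the mRNAs of these histone genes was not tested. Of 30 mitotic genes outside the rule the 14 wells held a median of 4 and 2, against 18 and 25 in S-high cycling and 1 and 1 in other immature wells. Of the genes picked after their values were seen, Fbxo5, an inhibitor of the anaphase-promoting complex, had no read in the 14 wells. It had 280.8 and 288.0 CPM in S-high cycling wells but only 1.68 and 1.91 in other immature wells. Ccnd2, a D-type cyclin, had 243.7 and 212.3 CPM in the 14 wells, against 0.73 and 16.5 in S-high cycling and 94.4 and 46.2 in other immature wells.

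**Figure D5:**
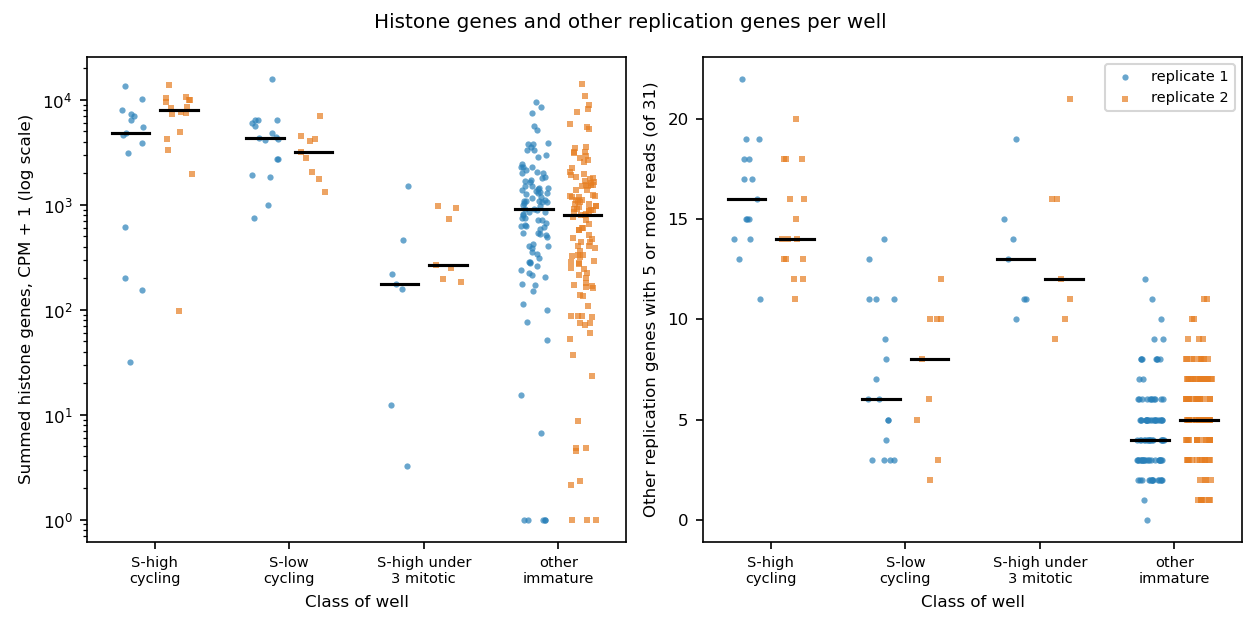
Per well, the summed level of 67 histone genes (CPM + 1, log axis, left) and the other replication genes present (of 31, right), by class and replicate; points are wells and bars are medians. The S-high wells with fewer than 3 mitotic genes sit low on the left (medians 177 and 268 CPM) and high on the right (medians 13 and 12 genes).

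Promoter windows of RefSeq on GRCm38.p6, from 250 bases before to 50 after the transcription start, were at hand for 31 of the 36 genes, all but Gins1, Gins2, Mcm4, Pole and Usp1. The letters TTTCCCGC, TTTGGCGC, TTTCGCGC or TTTGCCGC, forms of the E2F motif, were searched on both strands. They stood in at least 1 window of 12 of the 31 genes (38.7%), against 2.61% of 27025 genes with a window. A gene with several windows was counted once. The 12 were Cdc6, Cdt1, Clspn, Hells, Lig1, Mcm3, Mcm5, Mcm6, Mcm7, Pola1, Rfc3 and Uhrf1. Of the licensing genes 6 of 7 held such letters. Of the genes called higher in cycling wells 0 of 8 did, against 12 of 23 of those not called. Other forms of the motif and sites outside the windows were not searched, so a gene without a match may still hold a site. CCAAT was in a window of 58.1% of these 31 members and of 41.1% of all genes, and TTTGAA in a window of 12.9% and 20.2%. The windows of 3 MCM genes with 2 or 3 matches each (a window of Mcm7 also had 2) and of the called genes Pcna and Tk1, which had none, are shown to let these be compared, with matches in capitals. In Mcm5 and in Mcm6 a pair of matches on opposite strands overlaps; the window of Mcm3 is chr1:20820263-20820562 (minus strand), that of Mcm5 chr8:75109259-75109558 (plus), of Mcm6 chr1:128359656-128359955 (minus), of Pcna chr2:132253131-132253430 (minus) and of Tk1 chr11:117825965-117826264 (minus).
Mcm3: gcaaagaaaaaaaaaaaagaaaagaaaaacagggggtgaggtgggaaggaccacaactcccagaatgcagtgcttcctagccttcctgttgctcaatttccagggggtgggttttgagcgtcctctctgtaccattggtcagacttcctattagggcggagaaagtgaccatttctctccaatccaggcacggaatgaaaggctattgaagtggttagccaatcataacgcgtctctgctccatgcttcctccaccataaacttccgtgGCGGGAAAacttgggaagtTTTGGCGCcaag
Mcm5: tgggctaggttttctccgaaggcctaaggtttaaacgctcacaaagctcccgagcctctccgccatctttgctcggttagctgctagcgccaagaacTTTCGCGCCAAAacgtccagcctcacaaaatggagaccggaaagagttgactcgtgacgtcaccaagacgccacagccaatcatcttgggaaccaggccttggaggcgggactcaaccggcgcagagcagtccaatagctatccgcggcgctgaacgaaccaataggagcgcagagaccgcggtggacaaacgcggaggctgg
Mcm6: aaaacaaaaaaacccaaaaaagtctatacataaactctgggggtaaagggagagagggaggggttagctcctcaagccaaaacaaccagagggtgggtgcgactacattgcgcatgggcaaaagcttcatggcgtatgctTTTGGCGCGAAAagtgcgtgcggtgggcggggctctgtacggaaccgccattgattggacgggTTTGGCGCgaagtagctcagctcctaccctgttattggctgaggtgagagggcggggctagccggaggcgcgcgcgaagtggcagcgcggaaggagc
Pcna: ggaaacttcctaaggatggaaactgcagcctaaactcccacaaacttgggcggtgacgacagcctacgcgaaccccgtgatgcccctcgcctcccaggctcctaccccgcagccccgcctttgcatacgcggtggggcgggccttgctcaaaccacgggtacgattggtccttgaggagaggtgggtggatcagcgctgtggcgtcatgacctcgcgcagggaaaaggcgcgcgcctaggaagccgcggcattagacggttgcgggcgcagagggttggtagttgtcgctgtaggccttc
Tk1: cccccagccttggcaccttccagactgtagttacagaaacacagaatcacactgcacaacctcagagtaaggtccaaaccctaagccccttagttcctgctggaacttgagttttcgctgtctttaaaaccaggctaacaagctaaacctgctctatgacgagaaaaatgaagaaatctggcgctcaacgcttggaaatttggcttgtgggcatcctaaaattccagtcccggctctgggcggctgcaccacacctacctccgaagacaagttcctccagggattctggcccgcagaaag
In Mcm3 the matches start 20 and 39 bases after the start site, and in Mcm5 153 and 149 bases before it. A match is a string of letters and was not tested as a binding site.

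The protocol did not keep strand, so reads of overlapping genes on the opposite strand cannot be told apart. Exons of Tk1 overlap those of Afmid, Rfc4 those of Eif4a2, Rfc5 those of Wsb2, Slbp those of Gm10459, Mcm7 those of Cops6 and Ap4m1, Cdc45 those of Ufd1, Gins2 those of Gse1, Fen1 those of Tmem258, Lig1 those of Zswim9 and Chaf1a those of Ubxn6. The pseudogene Pcna-ps2 carried 7273 reads beside 64656 of Pcna, and reads may be split between them.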

How the data were processed

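Schwann cells of 768 wells (2 plates, the biological replicates) were measured as read counts per gene. The deposited counts were made by the authors from Smart-seq2 reads without molecular identifiers. The submitters' processing notes name bcl2fastq, STAR 2.6.1c, featureCounts and GRCm38.p5. Identifiers of 25587 of 25700 genes matched GENCODE annotation of mouse. The members, lists and class limits were chosen with earlier results of these data known.

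Counts were summed by state and replicate, since cells are not replicates, and fitted with edgeR 4.0.16 (R 4.3.3; TMM, filterByExpr, quasi-likelihood test) over all 8 sums, which share one estimate of spread (4 residual degrees of freedom). The 12 genes that define states were taken out, and Benjamini-Hochberg adjustment ran over 13892 genes with a threshold of 0.05. DESeq2 1.42.0, no filter on low counts, a replicate block, 2500 detected genes, thinning to 200000 reads, 10 reads for presence, and sums without the top 5% of wells by genes were the alternatives. Levels are CPM of the summed reads. The fit was tested on simulated data. Some genes of the lists are not reported here.

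Doublets were not called; the top 5% setting stands in for that. Same-numbered sums come from the same pooled animals, and their deviations correlated at -0.01 to 0.12 over 1990 genes. Named first are members called with a mean of 50 CPM or more in cycling sums (at most 12) or called in the other comparisons (at most 6 each), and from each list up to 4 genes by adjusted p; the other members follow by role. p-values measure the spread between 2 pools. Depth limits low genes: 1 read in the smallest sum of 13925435 reads sets the precision, and intervals and limits (3 counts for a count of 0) cover counting error only.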

Additional observations from a re-analysis of the deposited data

How the results depend on the processing

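For cycling against immature wells 9 of the 36 genes were called; DESeq2 and the fit without a filter on low counts each called 16, including the 9, and the other settings 6 to 11. For intermediate against immature wells 4 were called, against 15 with DESeq2 and 18 without the filter, and for myelinating against intermediate wells 0, against 5 and 7. The cause of these differences between fits was not tested. The share of all genes called in each of these settings is not given here, so the counts do not set the members against other genes. The replicate block, with the plate as the pair, gave 7 genes for cycling against immature (without Rfc4 and Usp1), 2 for intermediate against immature (without Tk1 and Tyms) and 0 for myelinating against intermediate wells. Over the called genes and the alternatives that give a test, 127 values kept direction and call and 16 kept direction without passing; of the values from a single replicate 17 moved by less than the spread between replicates and 9 by more, and none reversed. Rfc4, Usp1, Rpa2, Slbp, Tk1 and Tyms were the genes that lost a call in at least 1 setting. The mean share of wells with 14 replication genes and no mitotic gene present, 0.462%, became 31.9% with a limit of 3 genes and 11.7% with a limit of 5, the lower quartile of cycling wells, and ranged from 0 to 0.923% when a replicate was left out. For fewer than 3 mitotic genes, these values were 47.7%, 17.5% and 2.12% to 2.15%. With the limit of 5 genes such wells were no longer all immature. They were 23 of 106 immature and 18 of 187 intermediate or myelinating wells in replicate 1, and 37 of 122 and 37 of 183 in replicate 2. Settings chosen after seeing the data were those without plate columns 8 and 16, where wells held a median of 1907.5 genes against 3413 elsewhere, without the 14 wells, and with other Ncmap or Pmp22 borders. The planned test of other genes in wells with no mitotic gene was not made, because replicate 2 held no such well. Depth limits the sparse members: in cycling against immature wells the SE reached 2.24 for Pole and 2.00 for E2f1, on the log2 scale.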
